A study of Homo sapiens with 4 samples.

Results

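The insulin-like growth factor (IGF) and insulin signalling axis was described by 10 genes of the deposited table, chosen by symbol from 18806 gene symbols in all. They are the ligand IGF2, the receptors IGF1R, IGF2R and INSR, the adaptor IRS1 and the binding proteins IGFBP1, IGFBP2, IGFBP3, IGFBP4 and IGFBP6. RNA was sequenced from Huh7, a human liver cancer cell line, in 2 groups of 2 libraries. The control cells carried a non-targeting guide (sgNS) and the other cells a guide against METTL16, an RNA methyltransferase (titled sgMETTL16, called METTL16 KO here). All cells descended from 1 clone that stably expressed Cas9, were transduced with lentiviral guide RNA and were selected with hygromycin B, so that every library shares the traits of that clone. The labels give the genotype of sgNS as WT and of the METTL16 libraries as METTL16 knockdown, and they do not name the guide. The study calls the libraries of a group biological replicates. Whether the transductions were separate is not stated in the sources used here, and the p-values then measure only the spread between these libraries.

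IGF2 and insulin are secreted ligands that act through receptor tyrosine kinases. IGF1R and INSR bind them and pass the signal to IRS proteins, PI3K, AKT and mTOR, which promote growth and, in liver, restrain glucose output through FOXO factors. IGF2R has no kinase and carries IGF2 to the lysosome, while the IGF-binding proteins hold IGFs outside the cell and either restrain them or deliver them to their receptors. Hepatocytes are a main source of circulating IGFs and of several of their binding proteins, and IGF2 is a fetal growth factor that many liver tumours express again.

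Values are TPM (transcripts per 1000000 transcripts), which are scaled by transcript length and to the same total in each library, so that levels may be compared between genes. METTL16 itself had 26.3 and 25.1 TPM in the control libraries against 17.6 and 18.8 TPM under METTL16 KO, which is -0.50 on the log2 scale (standard error, SE, 0.062, limma adjusted p = 2.4e-05). The 10 hepatocyte markers examined lay between 160.0 and 10387 TPM. The 10 markers of blood, endothelial, mesenchymal, biliary and islet cells lay between 0 and 5.14 TPM, with INS and GCG listed at 0 in all 4 libraries. The groups were compared by limma on log2(TPM + 0.1) in 11971 genes, those averaging 1 TPM or more, a scale on which the changes of low genes come out too small. A gene was called when its p, adjusted by Benjamini-Hochberg over all genes tested, was under 0.05, and 75.7% of the genes passed. Because all genes tested had a median change of 0.16 on the log2 scale, each change is to be read against that shift. The value after median-ratio scaling, which removes the shift, is given beside it for the tested genes of the axis. For most other genes named, METTL16 among them, only the value with the shift still in it is given. In bulk RNA, fewer cells of a kind and less RNA per cell cannot be told apart.

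Of the 10 genes, 9 were tested, and 7 of these were higher and 2 lower in METTL16 KO. Over all genes tested 50.1% were called higher and 25.6% lower, or 36.4% and 36.5% after median-ratio scaling, where the 10 genes again gave 7 higher and 2 lower. The genes that rose were the ligand IGF2, the receptor INSR, its adaptor IRS1 and the binding proteins IGFBP1, IGFBP3, IGFBP4 and IGFBP6. Those that fell were the receptors IGF1R and IGF2R. IGFBP2 was below the filter. The groups did not overlap in any of the 9 genes tested, as in 87.4% of all genes tested. The MA plot of the study uses p under 0.01 and marks a doubling or halving (1 on the log2 scale). With the unadjusted limma p at these thresholds, IGFBP1 and IGFBP3 were higher and 0 of the genes were lower. Over all genes tested 7.69% were higher and 3.75% lower. The study names no test, and its totals of changed genes differ from those here.

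The genes lie apart in the genome except for IGFBP1 and IGFBP3, which are neighbours on chromosome 7. On GRCh38 the receptor genes are IGF1R on chromosome 15 (98648539 to 98964530, plus strand), IGF2R on chromosome 6 (159969082 to 160113507, plus strand) and INSR on chromosome 19 (7112255 to 7294414, minus strand). IRS1 is on chromosome 2 (226731312 to 226799820, minus strand), as is IGFBP2 (216632828 to 216664436, plus strand). IGFBP4 is on chromosome 17 (40443450 to 40457725, plus strand) and IGFBP6 on chromosome 12 (53097436 to 53102345, plus strand).

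**Figure D1:**
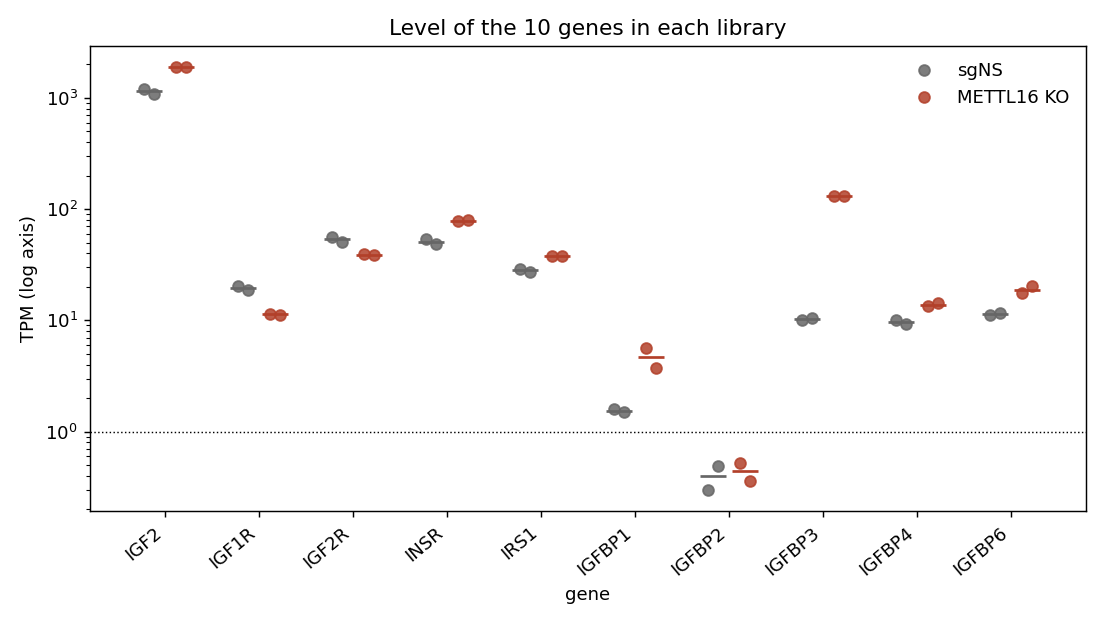
TPM of each of the 10 genes in each library on a log axis, with grey points for sgNS, red points for METTL16 KO, short lines for the mean of 2 libraries and a dotted line at 1 TPM, the minimum mean for testing. IGF2 is the most abundant of the genes in both groups, IGFBP3 moves from about the level of IGFBP4 to 131 TPM, and IGFBP2 stays below the dotted line.

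IGF2, the fetal IGF ligand, was the most abundant of the 10 genes in every library. It measured 1213 and 1087 TPM with the control guide and 1887 and 1892 TPM with the METTL16 guide. Both METTL16 KO libraries lay above both sgNS libraries, and the sgNS libraries differed more from each other than the METTL16 KO libraries did. The means were 1149.7 ± 89.2 and 1889 ± 3.78 TPM (SD, n = 2 per group), a ratio of 1.64. The log2 fold change was 0.72 (SE 0.042, limma adjusted p = 7.3e-08), and 0.55 after median-ratio scaling. Among all genes of the table IGF2 ranked 124 and 138 by TPM in sgNS and 74 and 71 in METTL16 KO. The gene (ENSG00000167244) is on chromosome 11 of GRCh38, minus strand, 2129112 to 2158391. The read-through transcript INS-IGF2 and the antisense gene IGF2-AS overlap it and are not analysed here, and since the sources used here do not say whether strand was used in counting, their reads cannot be told apart from those of IGF2.

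The other ligands of these receptors were at or near 0. IGF1, the growth-hormone-dependent ligand made by adult liver, stood at 0.10 and 0.07 TPM in the sgNS libraries and at 0.29 and 0.23 TPM in the METTL16 KO libraries, below the filter in both groups. INS was listed at 0 in all 4 libraries. IGF2 was thus the only one of the 3 ligands with a mean of at least 1 TPM.

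The receptors moved in different directions. IGF1R, the tyrosine kinase receptor of both IGFs, had 20.55 and 18.87 TPM in the control libraries against 11.44 and 11.24 TPM under METTL16 KO. Both METTL16 KO libraries were lower, at 0.575 times the sgNS mean. The log2 fold change of IGF1R was -0.79 (SE 0.070, limma adjusted p = 1.7e-06), or -0.96 after median-ratio scaling. IGF2R, the receptor that clears IGF2 and also sorts lysosomal enzymes, measured 56.45 and 50.70 TPM with the control guide and 39.35 and 38.34 TPM with the METTL16 guide. It fell by 0.46 on the log2 scale (SE 0.057, limma adjusted p = 2.5e-05), and by more after median-ratio scaling, where its change was -0.63. INSR, the insulin receptor, whose fetal isoform also binds IGF2, was higher, at 53.37 and 48.71 TPM in sgNS against 78.70 and 79.14 TPM in METTL16 KO. This was a log2 fold change of 0.63 (SE 0.051, limma adjusted p = 8.7e-07), or 0.46 after median-ratio scaling. Values per gene do not separate the isoforms of INSR.

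IGF1R and INSR are related receptors that can also pair with each other, and their ratio within a library is not affected by a scaling factor. There were 2.60 and 2.58 TPM of INSR for each TPM of IGF1R in sgNS and 6.88 and 7.04 in METTL16 KO. The ratio was thus 2.69 times as high in METTL16 KO, a difference of 1.43 on the log2 scale, while it differed little between the libraries of a group. The ratio of IGF2R to IGF1R was 2.75 and 2.69 in sgNS and 3.44 and 3.41 in METTL16 KO, so that IGF1R was lower relative to both other receptors. For such values the exact two-sided permutation test over 2 against 2 libraries gave a p of 0.33, the smallest it can give.

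IRS1, the docking protein that links both receptor kinases to PI3K, stood at 29.16 and 27.28 TPM in the sgNS libraries and at 38.16 and 37.91 TPM in the METTL16 KO libraries. Both METTL16 KO libraries were higher. Its log2 fold change of 0.43 (SE 0.054, limma adjusted p = 2.8e-05) was the smallest rise among the 7 genes that rose, and 3447 of the genes tested had a larger value. After median-ratio scaling the change of IRS1 was 0.26. IRS2, the other main IRS protein of liver, had 3.68 and 2.95 TPM in the control libraries against 3.26 and 3.10 TPM under METTL16 KO, with overlapping groups (limma adjusted p = 0.76).

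IGFBP3, the main carrier of IGFs in serum, showed the largest change of the 10 genes. It measured 10.08 and 10.50 TPM with the control guide and 130.83 and 131.24 TPM with the METTL16 guide. The libraries of a group lay close together, and the METTL16 KO mean was 12.7 times the sgNS mean. The log2 fold change was 3.66 (SE 0.050, 95% interval 3.55 to 3.77, limma adjusted p = 2.1e-12), or 3.49 after median-ratio scaling. Only 40 of the 11971 genes tested had a larger log2 fold change. IGFBP1, an insulin-repressed binding protein of hepatocytes, stood at 1.59 and 1.50 TPM in the sgNS libraries and at 5.65 and 3.75 TPM in the METTL16 KO libraries. Both METTL16 KO libraries were above both sgNS libraries but far from each other, and the log2 fold change of 1.52 had the widest interval of the 9 genes (1.10 to 1.93, adjusted p of 2.5e-05 in limma). The difference of IGFBP1 was 1.36 after median-ratio scaling.

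IGFBP6, which prefers IGF2 over IGF1, had 11.07 and 11.67 TPM in the control libraries against 17.65 and 20.16 TPM under METTL16 KO. Its log2 fold change was 0.73 (SE 0.079, limma adjusted p = 8.6e-06) and 0.56 after median-ratio scaling. IGFBP4, an inhibitory binding protein that the protease PAPP-A cleaves, measured 10.14 and 9.25 TPM with the control guide and 13.43 and 14.24 TPM with the METTL16 guide. All METTL16 KO values of IGFBP4 and IGFBP6 lay above those of sgNS. The log2 fold change of IGFBP4 was 0.51 (SE 0.079, limma adjusted p = 1.3e-04), and 0.35 after median-ratio scaling. IGFBP2, a binding protein of fetal liver and many tumours, stood at 0.30 and 0.49 TPM in the sgNS libraries and at 0.52 and 0.36 TPM in the METTL16 KO libraries, with overlapping groups. In a fit of all 16350 genes above 0 in any library, IGFBP2 had an adjusted p of 0.72 in limma. The median log2 fold change of the 9 tested genes was 0.63, against 0.16 over all genes.

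**Figure D2:**
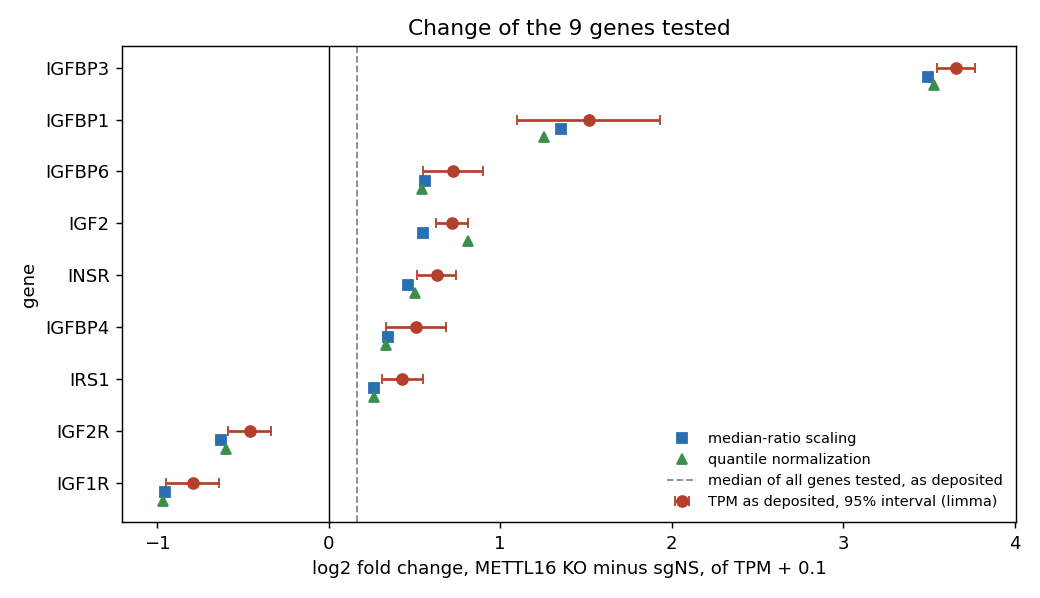
Log2 fold change of the 9 tested genes (horizontal axis) with its 95% interval from limma, and the same value after median-ratio scaling (squares) and quantile normalization (triangles); the dashed line is the median of all genes tested, 0.16. IGF1R and IGF2R lie left of 0 and the other 7 genes right of it under each of the scalings shown, with IGFBP3 far from the rest.

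The summed level of the 5 IGF-binding proteins of the axis was 33.2 and 33.4 TPM in sgNS and 168 and 169.8 TPM in METTL16 KO. Left out of this sum was IGFBP7, with 10.12 and 11.11 TPM in sgNS and 11.81 and 11.21 TPM in METTL16 KO. IGFBPL1 was also left out, with 3.79 and 3.58 TPM in sgNS and 3.89 and 3.33 TPM in METTL16 KO. The sum was 5.07 times as high in METTL16 KO, and its make-up differed as well. IGFBP3, IGFBP4 and IGFBP6 each gave between 27.7% and 34.9% of the sum in the sgNS libraries. In METTL16 KO IGFBP3 alone gave 77.8% and 77.3%, while IGFBP6 gave 10.5% and 11.9% and IGFBP4 gave 7.99% and 8.39%. Without IGFBP3 the sum was 23.1 and 22.9 TPM in sgNS and 37.3 and 38.5 TPM in METTL16 KO, 1.65 times as high.

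IGF2 mRNA exceeded the summed mRNA of its binding proteins in every library. There were 36.6 and 32.5 TPM of IGF2 for each TPM of binding protein in sgNS, and 11.2 and 11.1 in METTL16 KO. With IGFBP3 left out, the same ratio was 52.5 and 47.4 in sgNS and 50.7 and 49.1 in METTL16 KO, with overlapping groups. The groups were apart in this ratio with IGFBP3 in the sum and overlapped without it. These are ratios of mRNA, and protein outside the cells was not measured in these libraries.

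**Figure D3:**
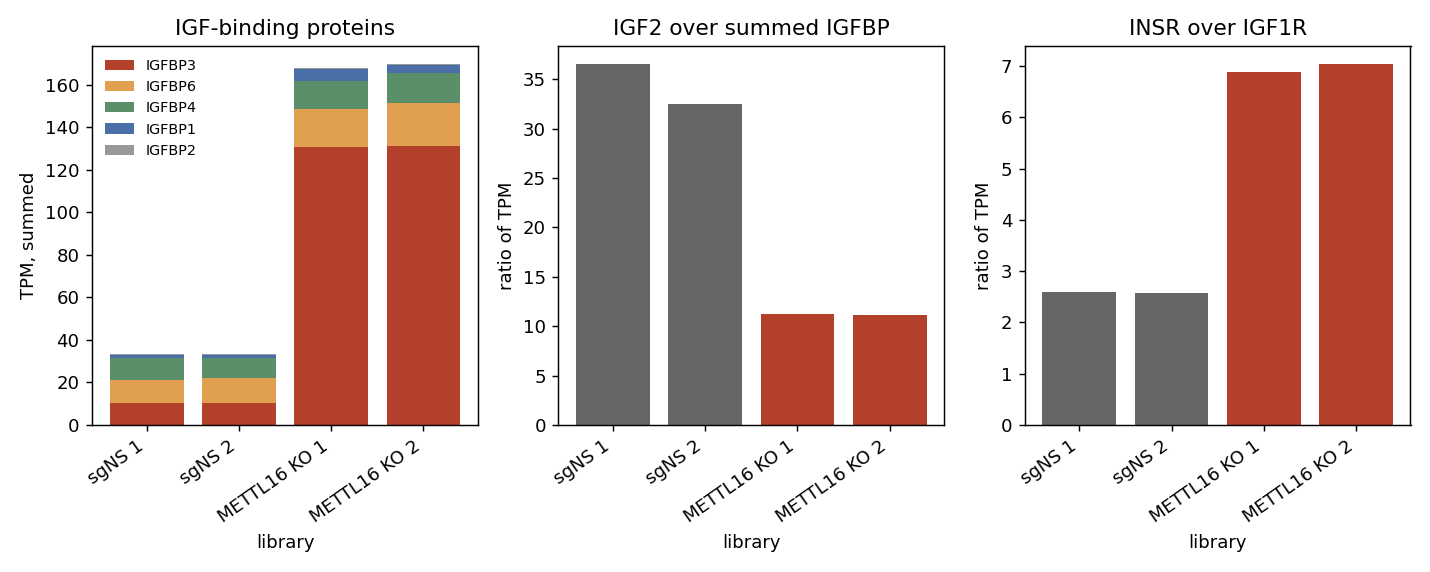
Bars for each library of sgNS and METTL16 KO: the stacked TPM of the 5 binding proteins (left), the TPM of IGF2 divided by that sum (middle) and the TPM of INSR divided by that of IGF1R (right). In METTL16 KO the IGFBP3 segment fills most of a sum of 168 and 169.8 TPM, the IGF2 ratio stands at 11.2 and 11.1, and the INSR ratio at 6.88 and 7.04.

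In order of mean level in sgNS, IGF2 was followed by IGF2R (53.6 TPM), INSR (51.0 TPM), IRS1 (28.2 TPM), IGF1R (19.7 TPM), IGFBP6 (11.4 TPM), IGFBP3 (10.3 TPM), IGFBP4 (9.70 TPM), IGFBP1 (1.55 TPM) and IGFBP2. The range of IGF2R over the sgNS libraries overlapped with that of INSR, although IGF2R was the higher of the pair within each library. The ranges of IGFBP3 and IGFBP4 overlapped as well, and which of them was higher differed between the libraries. In METTL16 KO the order was IGF2, IGFBP3 (131 TPM), INSR (78.9 TPM), IGF2R (38.8 TPM), IRS1 (38.0 TPM), IGFBP6 (18.9 TPM), IGFBP4 (13.8 TPM), IGF1R (11.3 TPM), IGFBP1 (4.70 TPM) and IGFBP2. No neighbours overlapped there, although IGF2R and IRS1 lay close. IGFBP3 moved from place 7 to place 2 and IGF1R from place 5 to place 8. The genes whose pattern over the 4 libraries lay nearest to that of IGF2, by the Euclidean distance of centred log2(TPM + 0.1), were WDR73, KCTD5 and SEC11C, at distances of 0.016, 0.022 and 0.022.

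Sequences in front of the start site are shown for the gene with the largest change, IGFBP3, and for the related receptors that moved in opposite directions, INSR and IGF1R. They are the 250 bases before the RefSeq start on GRCh38.p14, written on the strand of the gene. The intervals are chr7:45921273-45921522 (minus strand) for IGFBP3, chr19:7294415-7294664 (minus strand) for INSR and chr15:98648289-98648538 (plus strand) for IGF1R. The RefSeq start of IGFBP3 differs from that of GENCODE, where the gene reaches 45921874, so that its window lies within the GENCODE gene. Capitals mark matches on either strand to the motifs searched.
IGFBP3: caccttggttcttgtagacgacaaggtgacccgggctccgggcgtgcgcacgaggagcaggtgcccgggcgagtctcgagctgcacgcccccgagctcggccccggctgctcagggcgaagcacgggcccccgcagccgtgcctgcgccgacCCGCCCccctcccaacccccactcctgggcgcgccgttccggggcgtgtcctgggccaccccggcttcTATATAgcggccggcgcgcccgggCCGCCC
INSR: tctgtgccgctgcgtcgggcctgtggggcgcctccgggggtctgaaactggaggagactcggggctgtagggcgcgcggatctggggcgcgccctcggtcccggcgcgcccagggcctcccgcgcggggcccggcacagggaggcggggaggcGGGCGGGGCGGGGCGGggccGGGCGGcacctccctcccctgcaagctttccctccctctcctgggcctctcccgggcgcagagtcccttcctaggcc
IGF1R: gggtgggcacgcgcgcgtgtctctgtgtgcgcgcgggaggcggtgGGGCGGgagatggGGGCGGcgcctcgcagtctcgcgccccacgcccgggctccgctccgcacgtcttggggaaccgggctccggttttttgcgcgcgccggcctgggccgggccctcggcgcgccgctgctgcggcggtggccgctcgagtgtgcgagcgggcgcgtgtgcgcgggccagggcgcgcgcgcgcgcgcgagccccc
The TATA box was searched as TATAAA and in the variant form TATATA, the GC box as GGGCGG and the CCAAT box by the letters in its name. The forkhead motif was searched as GTAAACA, the core of an insulin response element as CAAAACAA and the AP-1 motif as TGANTCA. Matches may overlap. The IGFBP3 window held TATATA at bases -30 to -25 from the start and the GC box at 2 places. The INSR window held 4 GC boxes, of which 3 follow each other within bases -97 to -82, and the IGF1R window held 2. Among the 35116 promoters of the same length 42.6% held the GC box and 3.73% TATATA. GC content was 76.0% for IGFBP3, 78.4% for INSR and 81.2% for IGF1R, against a median of 58.0% over all promoters. Sequences were matched for 8 of the 10 genes, all but IGF2 and IGFBP1. IGFBP6 was the only one of these 8 with GTAAACA, which 2.98% of all promoters held, and none of the 8 held CAAAACAA (1.46% of all promoters) or TGANTCA (6.57%) in these windows. A match of letters is not evidence of a bound site.

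Other genes of the pathway were counted in 12 lists by role, with 88 genes outside the 10, of which 83 were in the table and 70 were tested. In METTL16 KO 35 of them (50%) were higher and 17 (24.3%) lower, where 50.1% and 25.6% of all genes were. After median-ratio scaling 26 were higher and 28 lower, where 36.4% and 36.5% of all genes tested were. The counts of each list below are to be read against these shares. The median log2 fold change of the 70 genes was 0.15. One of them, PCK1, was tested only through the group where it was high, and without it 34 of 69 were higher and 17 lower, with a median of 0.12. The 26 higher genes after median-ratio scaling include PCK1. The lists of ligands and receptors and of transcripts of the IGF2 locus had 0 tested genes, and H19, KCNQ1OT1 and IGFALS are not analysed here.

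The genes that act on the IGFs and their carriers were called in both directions. Of the 4 tested IGFBP proteases and inhibitors, 2 were higher and 2 lower. HTRA1, a secreted protease that cleaves binding proteins, rose from 1.06 and 1.10 TPM to 5.08 and 5.18 TPM, a log2 fold change of 2.15. PAPPA2, a protease of IGFBP3 and IGFBP5, fell by 0.58 on the log2 scale, and the membrane protease ADAM9 fell by 0.49. STC2, an inhibitor of PAPP-A, rose by 0.28 on the same scale but was not called after median-ratio scaling, with an adjusted p of 0.13 in limma. Neither of the other 2 binding protein genes tested, IGFBP7 and IGFBPL1, passed, with adjusted p-values of 0.20 and 0.83 in limma, and IGFBP5 was listed between 0 and 0.06 TPM.

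The IGF2 mRNA-binding proteins, which bind IGF2 mRNA and also act as readers of m6A, were all lower, while IGF2 mRNA was higher. IGF2BP1 had 209.6 and 202.3 TPM in the control libraries against 128.6 and 129.4 TPM under METTL16 KO, a log2 fold change of -0.67. IGF2BP2 fell from 151.4 and 144.8 TPM to 110.1 and 110.6 TPM, a log2 fold change of -0.42, and IGF2BP3 fell from 45.4 and 47.9 TPM to 24.4 and 26.3 TPM, a log2 fold change of -0.88. Their adjusted p-values in limma were between 3.5e-08 and 2.1e-06, and after median-ratio scaling 3 of 3 were again lower. The share of all genes tested that was lower was 25.6%, or 36.5% after that scaling.

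At the receptors, 7 of 10 tested adaptor genes were higher and 0 lower, or 4 and 1 after median-ratio scaling. Over all genes tested 50.1% were higher and 25.6% lower, or 36.4% and 36.5% after that scaling. The RAS exchange factors SOS1 and SOS2 rose by 0.61 and 0.47 on the log2 scale and the adaptor CRK rose by 0.48. Of the 9 genes that restrain the receptors 6 were higher and 2 lower, or 5 and 3 after median-ratio scaling. SOCS3, a cytokine-induced inhibitor that also targets the insulin receptor and IRS proteins, rose from 1.49 and 1.48 TPM to 10.7 and 11.3 TPM, a log2 fold change of 2.81. GRB10, an adaptor that binds and inhibits INSR and IGF1R, rose from 24.6 and 24.1 TPM to 67.5 and 67.2 TPM, a log2 fold change of 1.46. SH2B3, which dampens receptor signalling in blood cells, had a log2 fold change of 0.95. The median of this list was 0.58, and 0.42 after median-ratio scaling.

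In the PI3K and AKT list 5 of 9 tested genes were higher and 1 lower, or 4 and 3 after median-ratio scaling. The shares over all genes tested were 50.1% and 25.6%, or 36.4% and 36.5% after that scaling. The regulatory subunits of PI3K moved in opposite directions. PIK3R1 rose from 22.2 and 23.1 TPM to 50.7 and 49.8 TPM, a log2 fold change of 1.15, whereas PIK3R2 fell from 127.2 and 113.1 TPM to 66.6 and 65.8 TPM, a log2 fold change of -0.86. The catalytic subunit gene PIK3CD rose by 0.66 on the log2 scale. AKT1 and AKT2, the kinases downstream, did not pass, with adjusted p-values of 0.63 and 0.079 in limma. AKT2 was, however, called lower after median-ratio scaling (log2 fold change of -0.27) and with quantile normalization (-0.25). Without sgNS replicate 2 the log2 fold change of AKT2 was -0.15. Among the brakes on this arm 3 of 7 were higher and 2 lower, or 2 and 3 after median-ratio scaling. On the log2 scale the lipid phosphatase INPPL1 fell by 0.82, while PPP2CA, a protein phosphatase subunit, rose by 0.31.

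In the mTOR arm 6 of 15 genes were higher and 5 lower, or 5 and 9 after median-ratio scaling. The shares over all genes tested were 50.1% and 25.6%, or 36.4% and 36.5% after that scaling. MTOR, the kinase itself, rose from 34.04 and 31.32 TPM to 51.02 and 50.87 TPM, a log2 fold change of 0.64. DEPTOR, an inhibitor of mTOR, fell from 18.7 and 19.4 TPM to 8.36 and 8.59 TPM, and RPS6KB2, a ribosomal S6 kinase, fell from 214.09 and 204.19 TPM to 100.16 and 100.04 TPM. On the log2 scale these changes were -1.16 (limma adjusted p = 8.9e-08) and -1.06 (limma adjusted p = 1.7e-09).

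Among the FOXO factors and their liver targets 3 of 7 tested genes were higher and 1 lower, or 2 and 3 after median-ratio scaling. FOXO1, which insulin signalling keeps out of the nucleus, fell by 0.51 on the log2 scale, and FOXO4 rose by 0.72 on that scale. PCK1, the gluconeogenic enzyme gene that insulin represses, measured 0.02 and 0.03 TPM with the control guide and 2.05 and 2.20 TPM with the METTL16 guide. It reached the minimum mean for testing only through METTL16 KO, so that its place among the tested genes was set by the group where it was high. Its call is therefore given no weight here. Without it 2 of 6 genes of this list were higher and 1 lower. The 2 higher genes after median-ratio scaling include PCK1. G6PC, the other classical gluconeogenic target, remained between 0.04 and 0.12 TPM in all 4 libraries and was not tested. In the growth hormone axis 3 of 4 genes were higher and 1 lower, where 50.1% and 25.6% of all genes tested were. The lower gene was STAT5B, with a log2 fold change of -0.49 (limma adjusted p = 5.6e-05), or -0.66 after median-ratio scaling. The receptor gene GHR rose from 10.3 and 10.1 TPM to 23.7 and 24.8 TPM, a log2 fold change of 1.24, and the kinase gene JAK2 rose by 1.10 on the log2 scale. STAT5A rose by 0.63 on that scale, a call that was lost with quantile normalization (adjusted p of 0.063 in limma) and without METTL16 KO replicate 2 (adjusted p of 0.073 in limma).

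**Figure D4:**
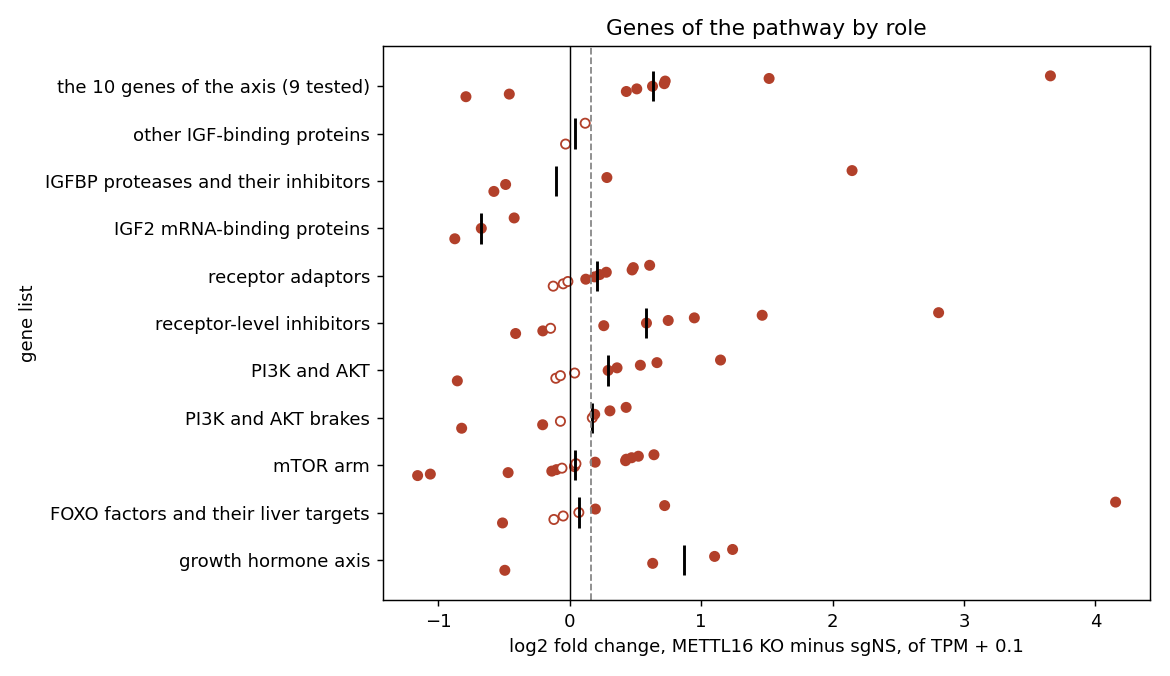
Log2 fold change (horizontal axis) of each tested gene by list, with filled points for genes at an adjusted p under 0.05 in limma, open points for the others, black bars for the median of a list and a dashed line at the median of all genes, 0.16. The IGF2 mRNA-binding proteins lie left of 0, most receptor-level inhibitors lie right of it, and SOCS3 and HTRA1 lie far right. The point at the right edge is PCK1, which was tested only through its METTL16 KO values.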

How the data were processed

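Per the labels the libraries were rRNA-depleted (Ribozero) but made with a stranded mRNA kit, which the methods name as well. Cutadapt (trimming), STAR (mapping to GRCh38) and RSEM (gene values) were used by the authors. Versions, annotation and the strand setting are not given in the sources used here. The deposited values are TPM per gene symbol, rounded to 2 decimals. In the methods the unit is RPKM, yet every library adds up to 1000000. Read counts cannot be taken from TPM, so that depth is unknown and no counting error was computed.

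Groups and replicate numbers were taken from the sample titles. METTL16 KO was compared with sgNS on log2(TPM + 0.1) in 11971 genes with a mean of at least 1 TPM, by limma 3.58.1 in R 4.3.3 (lmFit, eBayes with trend, no block, two-sided, Benjamini-Hochberg over all genes tested). The fit was checked on simulated data. The study names no test for these data. Ratios were tested with an exact permutation test in Python 3.11.15 with scipy 1.17.1, pandas 2.3.3 and numpy 2.4.6, and figures drawn with matplotlib 3.10.9. The genes, the lists and the tests were chosen with earlier results of these data known. Within a list up to 3 called genes with the largest absolute change were named with values, except 1 gene that is not reported here. STC2, IGFBP5, IGFBP7, IGFBPL1, IRS2, IGF1, AKT1, AKT2, G6PC and STAT5B and the genes near IGFBP3 were named after their values were seen. Counts without PCK1 were added after seeing the data. The motifs and the promoters printed were chosen after the changes were seen, and TATATA after the sequences were seen. Positions of genes come from GENCODE 44 (GRCh38), matched by symbol for 10 of 10 genes, and promoter sequences are those of RefSeq.

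Same-numbered libraries of the groups did not deviate together (correlation of -0.044 over the genes tested). Alternatives were pseudocounts of 1 and 0.01, no filter, a minimum mean of 5 TPM, median-ratio scaling (each library divided by its median ratio to gene-wise geometric means), quantile normalization, the replicate number as a block, limma without trend and each library left out in turn.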

Additional observations from a re-analysis of the deposited data

How the results depend on the processing

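The 9 tested genes of the axis kept their direction and call in 107 of 107 alternative values, with log2 fold changes from 3.49 to 3.69 for IGFBP3 and from -0.97 to -0.73 for IGF1R. All alternatives reuse the same 4 libraries, and the matching count over all genes tested is not given here. With the replicate block 7 of the 9 genes were higher and 2 lower, as without it. The pathway lists gave 35 higher and 16 lower with that block. The replicate numbers share only a number in the labels. With a minimum mean of 5 TPM IGFBP1 was not tested, and 1 gene, IGFBP3, was higher past the fold threshold. Median-ratio scaling raised the lower genes of the pathway lists from 17 to 28, and the share of lower genes among all tested from 25.6% to 36.5%. Without IGFBP3 the summed level of the binding proteins differed by 0.72 on the log2 scale, against 2.34, and the ratio of that sum to IGF2 by 0.00036, against 1.62. Quantile normalization gave 2.19 for the sum, 1.38 for its ratio to IGF2, 1.48 for INSR over IGF1R (1.43 as reported), 0.38 for IGF2R over IGF1R (0.33 as reported) and -0.44 for IGFBP2, which was not tested. The cause of these shifts was not tested. The unknown depth limits what can be said of IGFBP2, IGF1 and other genes below 1 TPM.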

Other observations

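IGFBP1 and IGFBP3, the genes of the axis with the largest changes, are neighbours on chromosome 7 of GRCh38. IGFBP1 lies on the plus strand from 45888360 to 45893660 and IGFBP3 on the minus strand from 45912245 to 45921874, with 18584 bases between them. Both rose, by 1.52 and 3.66 on the log2 scale. Within 1 Mb of them 2 other genes were tested, and both were lower, where 25.6% of all genes tested were. TBRG4 had a log2 fold change of -0.84 and NACAD of -1.18, both past the threshold in limma (adjusted p = 5.6e-08 and 1.2e-04).

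IGF2 lies in an imprinted region of chromosome 11. Within 1 Mb of it 9 other genes were tested, of which 5 were higher and 1 was lower, where 50.1% and 25.6% of all genes tested were. The median log2 fold change of these 9 genes was 0.25, against 0.16 over all genes. Their values ranged from -0.30 for CD81 to 1.94 for PHLDA2. Neighbours were found by symbol in GENCODE release 44, and all were named after their values were seen.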
